A study of Homo sapiens with 16 samples.

Results

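Transcript levels of 10 genes of the NF-kB pathway were followed in HCC4006, an established line from a non-small cell lung cancer with mutant, active EGFR. The genes were picked by symbol (LTB, LY96, NFKBIA, TNFAIP3, CYLD, NFKB1, NFKB2, RELB, ICAM1 and TNFAIP2) out of 24293 loci, and a symbol with several rows was represented by the row of highest mean. All 10 passed the filter on low values (a mean of at least 1 FPKM over the 16 libraries), which kept 11647 loci. FPKM values are fragments corrected for transcript length and for the fragments mapped in each library. Cells grew for 24 hours without compound and were then treated for 24 hours with gefitinib plus AZ1366 (combination, 100 nM of each), with gefitinib at 100 nM, with AZ1366 at 100 nM or with DMSO (vehicle), in 4 libraries per group. Gefitinib inhibits the EGFR kinase, and AZ1366 inhibits tankyrases, enzymes that add ADP-ribose chains to proteins such as axins. All 4 groups are the same single cell line.

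NF-kB factors are dimers of Rel proteins that inhibitors of the IkB family hold in the cytoplasm. In the canonical branch, receptors for TNF, interleukin-1 and microbial products activate the IKK complex, which marks IkB alpha (the product of NFKBIA) for degradation and frees dimers of RELA with the NFKB1 product. In the non-canonical branch, the lymphotoxin beta receptor stabilises the kinase encoded by MAP3K14, and dimers of RELB with the NFKB2 product form. NFKBIA and TNFAIP3 are themselves induced by NF-kB and limit it, and EGFR-mutant lung cancer cells are known to engage NF-kB when EGFR is inhibited.

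The promoters of 4 members hold a match to the kappa B consensus within 250 bases before the annotated start, and every member with a match is shown. The stretches end 1 base before the start, read 5′ to 3′ on the strand of the gene, with the matches in capitals (RefSeq, GRCh38.p14). LTB is at chr6:31582426-31582575 on the minus strand, TNFAIP3 at chr6:137867109-137867258 on the plus strand, NFKBIA at chr14:35404750-35404899 on the minus strand and NFKB1 at chr4:102501209-102501358 on the plus strand.
LTB: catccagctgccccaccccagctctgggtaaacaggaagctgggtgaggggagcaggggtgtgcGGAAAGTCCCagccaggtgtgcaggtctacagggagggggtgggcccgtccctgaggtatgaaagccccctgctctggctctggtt
NFKBIA: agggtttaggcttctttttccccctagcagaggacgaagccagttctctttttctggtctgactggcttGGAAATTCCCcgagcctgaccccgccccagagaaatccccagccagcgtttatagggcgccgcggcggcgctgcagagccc
TNFAIP3: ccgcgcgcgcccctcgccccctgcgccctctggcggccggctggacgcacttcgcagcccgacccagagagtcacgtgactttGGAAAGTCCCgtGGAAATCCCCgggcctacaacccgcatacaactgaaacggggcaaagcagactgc
NFKB1: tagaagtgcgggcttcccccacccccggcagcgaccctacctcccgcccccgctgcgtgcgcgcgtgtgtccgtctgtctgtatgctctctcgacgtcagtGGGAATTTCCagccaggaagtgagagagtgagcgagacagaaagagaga
Both strands were searched for the 10-letter consensus GGGRNWYYCC (R is A or G, W is A or T, Y is C or T, N is any base). Sites that differ from this pattern or lie outside the 250 bases were not counted, so a member without a match may still hold a site. The matches lie at -86 to -77 from the start in LTB, -81 to -72 in NFKBIA, -67 to -58 and -55 to -46 in TNFAIP3 and -49 to -40 in NFKB1. Of 27305 promoters of the same length 1380 (5.05%) hold a match, as do 4 of the 8 members with a sequence here, which also include CYLD, NFKB2, ICAM1 and TNFAIP2. The members were chosen as NF-kB pathway and target genes, so their share with a match is no independent evidence about them. The looser pattern GGGNNNNNCC, which every consensus match also fits, was present in 8 of 8 members and in 53.7% of all promoters.

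Summed FPKM ran from 433357 to 478179 per library and loci at 1 FPKM or more from 11326 to 11799, and the number of reads is not known, so no counting interval can be given. Nothing in the labels ties the 4 libraries of a group to separate cultures, so the p-values rest on a spread between libraries that may be technical. AZ1366 replicate 1 had the highest value of its group for 9 members and the lowest for LY96, and leaving it out ended no call of a member. The epithelial markers were abundant (6 of 6, with a mean of 1544 FPKM for KRT7), and their sum was lower in every treated group, at 3573 to 3964 FPKM in combination libraries, 4367 to 4745 in gefitinib libraries and 3668 to 4920 in AZ1366 libraries, against 5198 to 5922 in vehicle libraries. KRT7, KRT8 and KRT18 had lower means in every treated group than with vehicle. KRT8 averaged 695 FPKM with the combination and 1454 FPKM with vehicle. EPCAM was higher in every treated group, at 292, 251 and 258 FPKM with the combination, gefitinib and AZ1366, against 229 FPKM with vehicle. CDH1 and KRT19 had higher means than vehicle with AZ1366 only. Of 12 leukocyte markers 2 averaged at least 1 FPKM, CD68 at 46.8 FPKM and CSF1R at 3.52 FPKM, while CD2 and MS4A1 were at 0 in every library and PTPRC reached at most 0.139 FPKM. The leukocyte markers summed to 64.3 to 70.8 FPKM in combination libraries, 55.3 to 60.3 in gefitinib libraries, 44.3 to 50.9 in AZ1366 libraries and 37.7 to 42.2 in vehicle libraries, most of it CD68, and the part of both marker sums in the results below was not tested.

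Against vehicle, LTB, LY96 and NFKBIA rose under each treatment and TNFAIP3 fell under each, while RELB, ICAM1 and CYLD rose with gefitinib and with the combination but did not pass the test with AZ1366. Changes are differences of group means of log2(FPKM + 1), which understates the change of low genes, and a gene passed at an adjusted p under 0.05 (limma, Benjamini-Hochberg over the 11647 loci, two-sided). With the combination 6 members were higher and 2 lower, where 79.3% of all loci passed, 29.9% higher and 49.4% lower. With gefitinib 7 were higher and 1 lower, against 27.7% higher and 36.9% lower of all loci (64.6% together). With AZ1366 3 were higher and 4 lower, against 18.6% and 39.8% of all loci (58.4% together). The median change of the 10 members was 0.56 with the combination, 0.62 with gefitinib and -0.066 with AZ1366, and that of all loci was -0.15, -0.056 and -0.10 in the same order. Since most loci passed in these comparisons, the number of members that passed says little by itself, and the sizes below carry the description. Quantile normalization, which forces all libraries to 1 distribution, moved the median over all loci with the combination to -0.018. It raised the share of rises among all calls to 48.6% with the combination (otherwise 37.7%) and to 48.0% with AZ1366 (otherwise 31.9%).

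**Figure D1:**
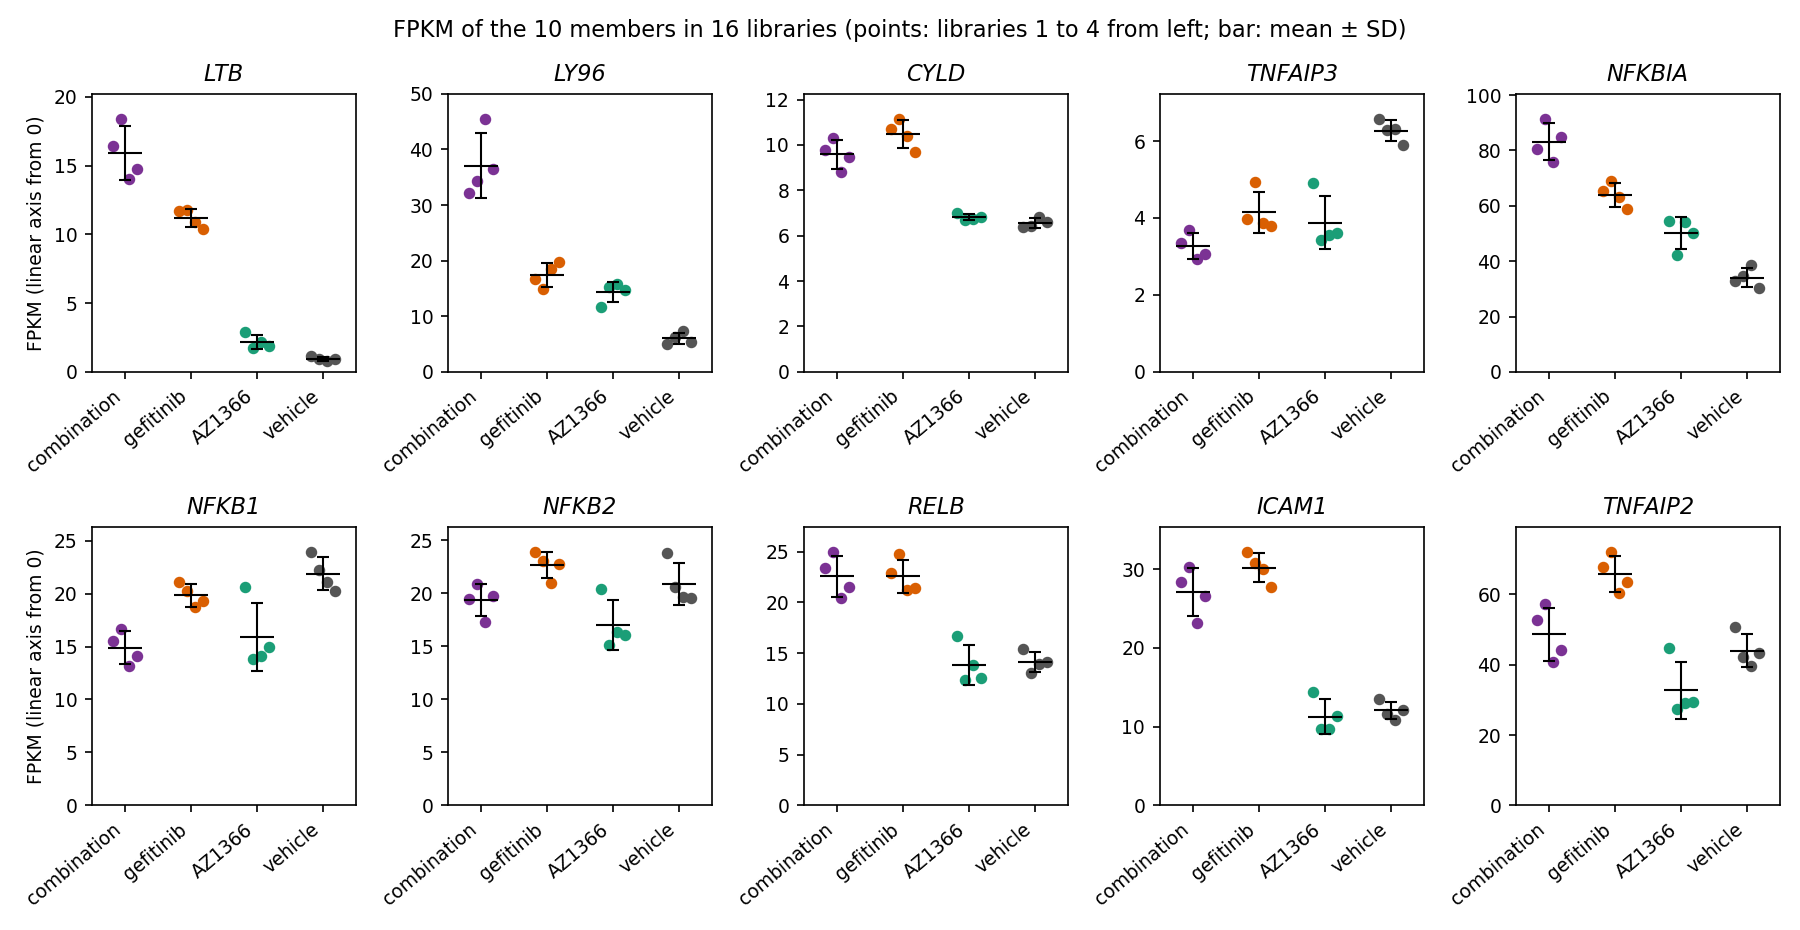
FPKM of the 10 members (y axes, linear, from 0) in each library of the 4 treatment groups (x axes); points are libraries 1 to 4 from left to right, horizontal bars the group mean and whiskers the SD (n = 4). LTB and LY96 are highest in all 4 combination libraries, and TNFAIP3 is highest in all 4 vehicle libraries at 5.89 to 6.58 FPKM.

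LTB encodes lymphotoxin beta, the membrane anchor of the ligand that engages the lymphotoxin beta receptor, and it showed the largest changes of the 10 genes with gefitinib and with the combination. The locus (hg19 chromosome 6, 31548336 to 31550202) had 16.4, 18.4, 14.0 and 14.7 FPKM in combination libraries, 11.7, 11.7, 10.9 and 10.4 FPKM in gefitinib libraries, 2.89, 1.73, 2.15 and 1.86 FPKM in AZ1366 libraries and 1.12, 0.918, 0.784 and 0.965 FPKM in vehicle libraries. No pair of groups overlapped, and the order was combination, gefitinib, AZ1366, vehicle. LTB changed by 3.11 ± 0.10 with the combination (SE, adjusted p = 2.43e-14), by 2.65 ± 0.10 with gefitinib (5.97e-13) and by 0.69 ± 0.10 with AZ1366 (4.00e-05), which placed it 7th, 5th and 108th from the top of all tested loci. The means stood at 16.8, 11.8 and 2.28 times the vehicle mean in the same order. Vehicle libraries were near 1 FPKM, where the scale matters: with a pseudocount of 0.1 the AZ1366 change was 1.09. In a bulk library more RNA per cell and more cells that express the gene cannot be told apart. LTA, which encodes the partner of lymphotoxin beta in its trimer, did not exceed 0.0144 FPKM in any library. The file holds 7 further LTB rows, on alternate haplotypes of the region, all at 0.

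LY96 encodes the secreted co-receptor that binds lipopolysaccharide together with TLR4. It had 32.1, 34.3, 45.5 and 36.5 FPKM in combination libraries, 16.6, 14.8, 18.5 and 19.7 FPKM in gefitinib libraries, 11.7, 15.2, 15.9 and 14.7 FPKM in AZ1366 libraries and 5.10, 6.27, 7.26 and 5.41 FPKM in vehicle libraries (hg19 chromosome 8, 74903564 to 74941307). Both single-compound groups lay above vehicle and below the combination, and they overlapped each other. LY96 changed by 2.44 ± 0.12 with the combination (SE, adjusted p = 4.95e-12), by 1.40 ± 0.12 with gefitinib (1.98e-08) and by 1.13 ± 0.12 with AZ1366 (1.89e-06), and its rank from the top with AZ1366 was 7 of 11647. A correction for transcript length and GC content lowered the AZ1366 change to 0.66 with the call kept. TLR4 itself stayed between 0.220 and 0.421 FPKM over all libraries and CD14, which delivers lipopolysaccharide to it, between 0.369 and 0.899 FPKM, both below the filter.

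NFKBIA, encoding IkB alpha, had the highest mean of the members over the 16 libraries, at 57.9 FPKM. Its group mean was below that of TNFAIP2 with vehicle (34.1 against 44.0 FPKM) and with gefitinib (64.1 against 65.9 FPKM). It had 80.5, 91.4, 75.7 and 84.7 FPKM in combination libraries, 65.4, 69.0, 63.2 and 58.7 FPKM in gefitinib libraries, 54.4, 42.2, 54.0 and 50.1 FPKM in AZ1366 libraries and 32.8, 34.8, 38.5 and 30.3 FPKM in vehicle libraries (hg19 chromosome 14, 35870716 to 35873960). The 4 groups did not overlap. NFKBIA rose with the combination by 1.26 ± 0.085 (SE, adjusted p = 3.38e-10, 2.44 times the vehicle mean), with gefitinib by 0.89 ± 0.085 (8.66e-08) and with AZ1366 by 0.54 ± 0.085 (8.21e-05).

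TNFAIP3 encodes a ubiquitin-editing enzyme that shuts down signalling to IKK, and it was the member lowered by every treatment. It had 3.35, 3.69, 2.94 and 3.07 FPKM in combination libraries, 3.97, 4.94, 3.87 and 3.80 FPKM in gefitinib libraries, 4.90, 3.43, 3.55 and 3.61 FPKM in AZ1366 libraries and 6.58, 6.30, 6.32 and 5.89 FPKM in vehicle libraries (hg19 chromosome 6, 138144807 to 138204451). Whether the interval given here holds TNFAIP3 alone was not tested. The use of strand is not given, so reads of an overlapping gene may be part of these values. Every treated library lay below every vehicle library. The change was -0.77 ± 0.089 with the combination (SE, adjusted p = 3.71e-07), -0.50 ± 0.089 with gefitinib (1.01e-04) and -0.59 ± 0.089 with AZ1366 (6.14e-05). The length and GC correction left it lower, at -0.42 with the combination and -0.36 with AZ1366. TNFAIP3 and NFKBIA, both feedback inhibitors with kappa B matches close to their starts, thus moved in opposite directions under all 3 treatments.

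CYLD encodes a deubiquitinase that removes the chains on which IKK is activated. It had 9.79, 10.3, 8.80 and 9.46 FPKM in combination libraries, 10.7, 11.2, 10.4 and 9.68 FPKM in gefitinib libraries, 6.99, 6.69, 6.73 and 6.83 FPKM in AZ1366 libraries and 6.37, 6.42, 6.84 and 6.59 FPKM in vehicle libraries (hg19 chromosome 16, 50775961 to 50835846). The combination and gefitinib groups overlapped each other and lay above the AZ1366 and vehicle groups, which also overlapped. CYLD rose by 0.49 ± 0.055 with the combination (SE, adjusted p = 2.76e-07) and by 0.60 ± 0.055 with gefitinib (4.54e-08). With AZ1366 its change was 0.048 (95% interval -0.067 to 0.16, adjusted p = 0.461), but 0.20 after quantile normalization and 0.18 after the length and GC correction, both past the threshold. The combination change grew to 0.76 after that correction.

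The 3 Rel subunits among the members followed different patterns. RELB, the transactivating partner of the non-canonical branch, had 23.4, 24.9, 20.4 and 21.5 FPKM in combination libraries, 22.9, 24.8, 21.3 and 21.4 FPKM in gefitinib libraries, 16.6, 12.4, 13.8 and 12.6 FPKM in AZ1366 libraries and 15.4, 13.0, 13.9 and 14.2 FPKM in vehicle libraries (hg19 chromosome 19, 45504707 to 45541456). The combination and gefitinib groups overlapped each other and stood clear of the AZ1366 and vehicle groups. RELB rose by 0.64 ± 0.085 with the combination (SE, adjusted p = 2.08e-06) and by 0.64 ± 0.085 with gefitinib (4.27e-06), and its change with AZ1366 was -0.031 (95% interval -0.21 to 0.15, adjusted p = 0.761). That value had the other sign under quantile normalization (0.12) and passed as a rise after the length and GC correction (0.18, adjusted p = 0.00128).

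NFKB1, which encodes the DNA-binding partner of RELA, had 15.6, 16.7, 13.2 and 14.1 FPKM in combination libraries, 21.1, 20.2, 18.7 and 19.3 FPKM in gefitinib libraries, 20.6, 13.8, 14.1 and 15.0 FPKM in AZ1366 libraries and 23.9, 22.3, 21.1 and 20.3 FPKM in vehicle libraries (hg19 chromosome 4, 103422486 to 103538459). All 4 combination libraries were below all vehicle libraries, whereas AZ1366 replicate 1 reached into the vehicle range. NFKB1 fell with the combination, by 0.53 ± 0.10 (SE, adjusted p = 1.06e-04), and with AZ1366, by 0.46 ± 0.10 (0.00112). Its change with gefitinib was -0.13 (95% interval -0.35 to 0.077, adjusted p = 0.250). Quantile normalization reduced the combination change to -0.32 and the length and GC correction to -0.19, and that correction reduced the AZ1366 change to -0.22, with the calls kept.

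NFKB2, the precursor gene of the non-canonical branch, had 19.5, 20.9, 17.3 and 19.7 FPKM in combination libraries, 23.9, 23.1, 21.0 and 22.7 FPKM in gefitinib libraries, 20.4, 15.1, 16.4 and 16.1 FPKM in AZ1366 libraries and 23.8, 20.6, 19.7 and 19.5 FPKM in vehicle libraries (hg19 chromosome 10, 104153867 to 104162286). The combination and gefitinib groups each overlapped vehicle, every combination library was below every gefitinib library, and AZ1366 libraries other than replicate 1 were the lowest. NFKB2 fell with AZ1366 by 0.29 ± 0.084 (SE, adjusted p = 0.00800), a call that ended after the length and GC correction (0.018, adjusted p = 0.704). Its change was -0.10 with the combination (adjusted p = 0.265) and 0.11 with gefitinib (0.244). Both depended on scaling: after quantile normalization they were 0.093 (adjusted p = 0.165) and 0.20 (0.00809), and after the length and GC correction both passed as rises, at 0.21 and 0.25. RELA averaged 29.6 ± 1.56 FPKM with the combination, 29.9 ± 1.13 with gefitinib, 26.9 ± 1.11 with AZ1366 and 29.1 ± 2.59 with vehicle (SD, n = 4). Neither RELA nor REL passed against vehicle, except that 1 of both rose with the combination under quantile normalization and 2 after the length and GC correction, and 1 fell with AZ1366 when AZ1366 replicate 1 was left out.

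ICAM1 encodes an adhesion molecule that binds leukocyte integrins and is a classical NF-kB target. It had 28.4, 30.3, 23.2 and 26.6 FPKM in combination libraries, 32.1, 30.7, 30.0 and 27.7 FPKM in gefitinib libraries, 14.5, 9.67, 9.70 and 11.3 FPKM in AZ1366 libraries and 13.6, 11.7, 10.9 and 12.1 FPKM in vehicle libraries (hg19 chromosome 19, 10381517 to 10397291). Every combination and gefitinib library lay above every AZ1366 and vehicle library. ICAM1 rose by 1.11 ± 0.10 with the combination (SE, adjusted p = 2.87e-08, 2.25 times the vehicle mean) and by 1.26 ± 0.10 with gefitinib (1.45e-08, 2.50 times). With AZ1366 the change was -0.10 (95% interval -0.32 to 0.12, adjusted p = 0.416). It passed as a fall without AZ1366 replicate 1 (-0.22, adjusted p = 0.0316) and as a rise after the length and GC correction (0.18, adjusted p = 0.0112).

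TNFAIP2 is a TNF-induced gene whose product takes part in membrane nanotube formation, and it was the member on which the compounds had opposite calls. It had 52.6, 57.2, 40.7 and 44.1 FPKM in combination libraries, 67.9, 72.0, 60.3 and 63.4 FPKM in gefitinib libraries, 44.7, 27.5, 29.2 and 29.5 FPKM in AZ1366 libraries and 50.8, 42.2, 39.8 and 43.3 FPKM in vehicle libraries (hg19 chromosome 14, 103592664 to 103603776). Gefitinib libraries were above all vehicle libraries, and AZ1366 libraries other than replicate 1 were below them. TNFAIP2 rose with gefitinib by 0.57 ± 0.13 (SE, adjusted p = 9.48e-04) and fell with AZ1366 by 0.44 ± 0.13 (0.00854), and the combination change was 0.13 (95% interval -0.14 to 0.41, adjusted p = 0.348). The fall with AZ1366 did not pass after the length and GC correction (-0.084, adjusted p = 0.241). The combination change passed as a rise under median-ratio scaling (0.27) and after the length and GC correction (0.54).

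**Figure D2:**
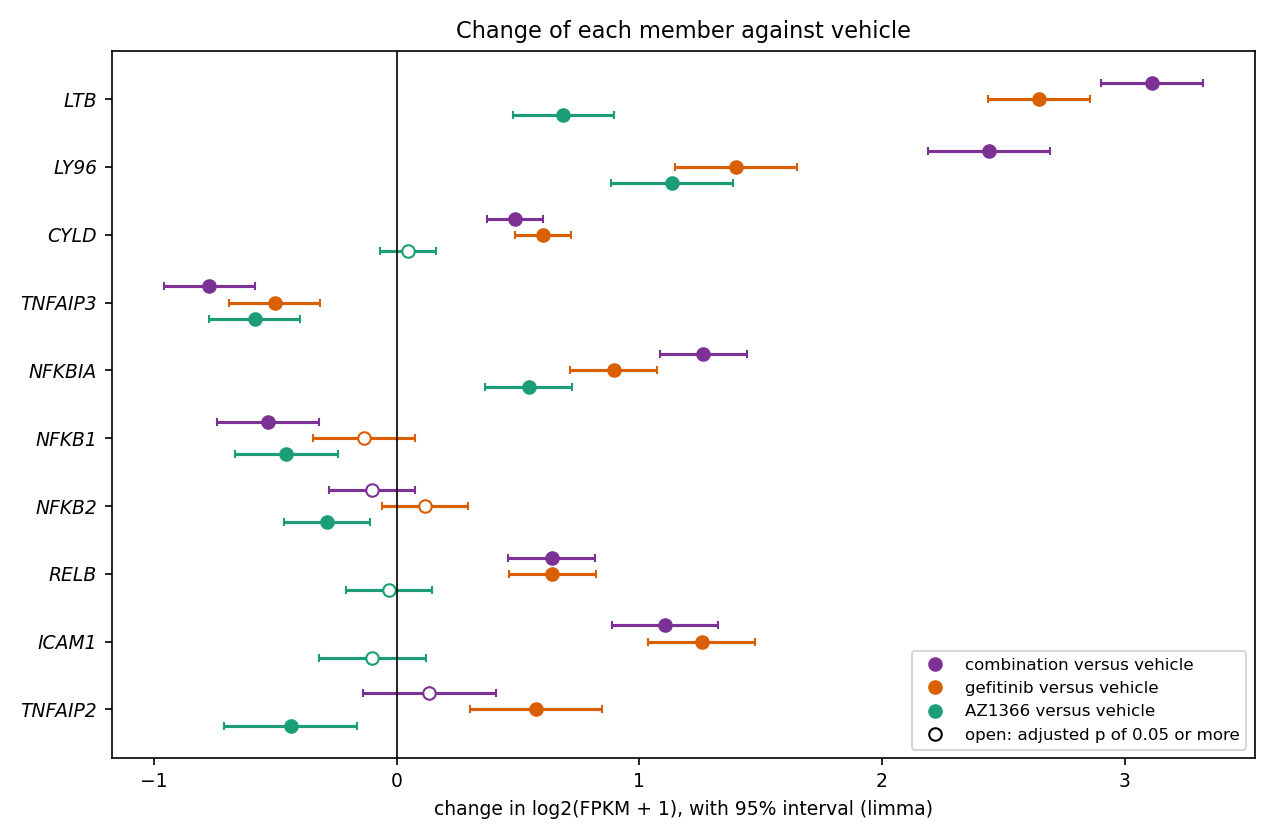
Change of each member against vehicle in log2(FPKM + 1) (x axis) with its 95% interval from limma, for the combination (top of each triplet), gefitinib (middle) and AZ1366 (bottom); open circles did not pass at an adjusted p of 0.05. LTB has the largest changes with the combination (3.11) and gefitinib (2.65), and LY96 has the largest with AZ1366 (1.13).

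Adding AZ1366 to gefitinib raised the 3 members that AZ1366 raised alone. Against gefitinib, LY96 rose by 1.04 ± 0.12 with the combination (SE, adjusted p = 4.02e-06), the 3rd largest rise of 11647 loci. LTB rose by 0.47 ± 0.10 (0.00115) and NFKBIA by 0.37 ± 0.085 (0.00207). TNFAIP2 changed by -0.44 ± 0.13 (0.00985), NFKB1 by -0.40 ± 0.10 (0.00380), TNFAIP3 by -0.27 ± 0.089 (0.0184) and NFKB2 by -0.22 ± 0.084 (0.0381). This made 3 members higher and 4 lower, where 15.3% of all loci were higher and 37.2% lower (52.5% together; 29.1% of these calls were rises, and 49.6% under quantile normalization). RELB (-0.0033, 95% interval -0.18 to 0.18), ICAM1 (-0.15, -0.37 to 0.068) and CYLD (-0.12, -0.23 to -0.0025) did not pass. The call of NFKB2 was lost without any 1 of 6 libraries (gefitinib replicates 1, 2 and 4, combination replicates 1, 3 and 4, adjusted p between 0.0596 and 0.132), and that of TNFAIP3 without gefitinib replicate 2, combination replicate 3 or combination replicate 4 (between 0.0520 and 0.0779). NFKB2 and TNFAIP3 also missed the threshold after the length and GC correction (adjusted p = 0.357 and 0.409), which brought NFKB1 to -0.20 and TNFAIP2 to -0.21, and NFKB2 missed it with no filter (0.0664) and under quantile (0.156) and median-ratio scaling (0.0983), whereas CYLD passed as a fall without gefitinib replicate 4 (-0.15) or combination replicate 2 (-0.15).

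Adding gefitinib to AZ1366 raised 7 of 10 members and lowered 0, where 26.9% of all loci were higher and 35.7% lower (62.6% together). LTB rose by 2.43 ± 0.10 with the combination against AZ1366 (SE, adjusted p = 1.93e-12, 7.36 times the AZ1366 mean), LY96 by 1.31 ± 0.12 (4.40e-08) and ICAM1 by 1.21 ± 0.10 (2.31e-08). NFKBIA (0.72), RELB (0.67), TNFAIP2 (0.57) and CYLD (0.44) rose by less, with adjusted p of at most 9.84e-04. NFKB2 (0.18, adjusted p = 0.0676), NFKB1 (-0.075, 0.530) and TNFAIP3 (-0.19, 0.0784) did not pass. NFKB2 passed as a rise without AZ1366 replicate 1 (0.27) or combination replicate 3 (0.23), and TNFAIP3 as a fall without AZ1366 replicate 2 (-0.23) or combination replicate 2 (-0.23), and both passed under quantile normalization (0.25 and -0.15).

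Set directly against AZ1366, gefitinib gave higher levels of 8 members and lower levels of 0, where 28.1% of all loci were higher and 17.9% lower (46.0% together; 61.1% of these calls were higher with gefitinib, and 47.3% under quantile normalization). LTB differed by 1.96 ± 0.10 (SE, adjusted p = 5.52e-11), ICAM1 by 1.36 ± 0.10 (1.04e-08), TNFAIP2 by 1.01 ± 0.13 (5.80e-06), RELB by 0.67 ± 0.085 (4.66e-06) and CYLD by 0.56 ± 0.055 (2.47e-07). NFKB2, NFKBIA and NFKB1 were higher by 0.40, 0.35 and 0.32, with adjusted p of at most 0.0143. LY96 and TNFAIP3 did not pass: LY96 differed by 0.26 (95% interval 0.012 to 0.51, adjusted p = 0.0804) and TNFAIP3 by 0.083 (-0.11 to 0.27, 0.474). LY96 passed without gefitinib replicate 2 (0.33) and after the length and GC correction (0.43), and TNFAIP3 without AZ1366 replicate 1 (0.18). The call of NFKB1 was lost without AZ1366 replicate 2 or 3 (adjusted p = 0.0505 and 0.0521), and the length and GC correction brought NFKB2 to 0.23.

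Whether the combination departed from the sum of the single changes was tested as the interaction of both compounds on the log2 scale, and 0 of 10 members passed (limma), with 2 at an unadjusted p under 0.05. Of all loci 1.82% passed, 0.326% above and 1.49% below the sum. For LY96 the departure was -0.092 (95% interval -0.45 to 0.26, adjusted p = 0.832) beside single changes of 1.40 and 1.13 and a combination change of 2.44. For LTB it was -0.22 (-0.52 to 0.076, 0.490; -0.59 with a pseudocount of 0.1) and for NFKBIA -0.17 (-0.43 to 0.081, 0.524). The members at an unadjusted p under 0.05 were TNFAIP3, whose fall with the combination was smaller than the sum of the single falls by 0.32 ± 0.13 (SE, adjusted p = 0.258), and CYLD at -0.17 ± 0.078 (0.338). TNFAIP3 passed under quantile normalization (0.30), after the length and GC correction (0.32) and without AZ1366 replicate 1 (0.41, adjusted p = 0.0305).

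**Figure D3:**
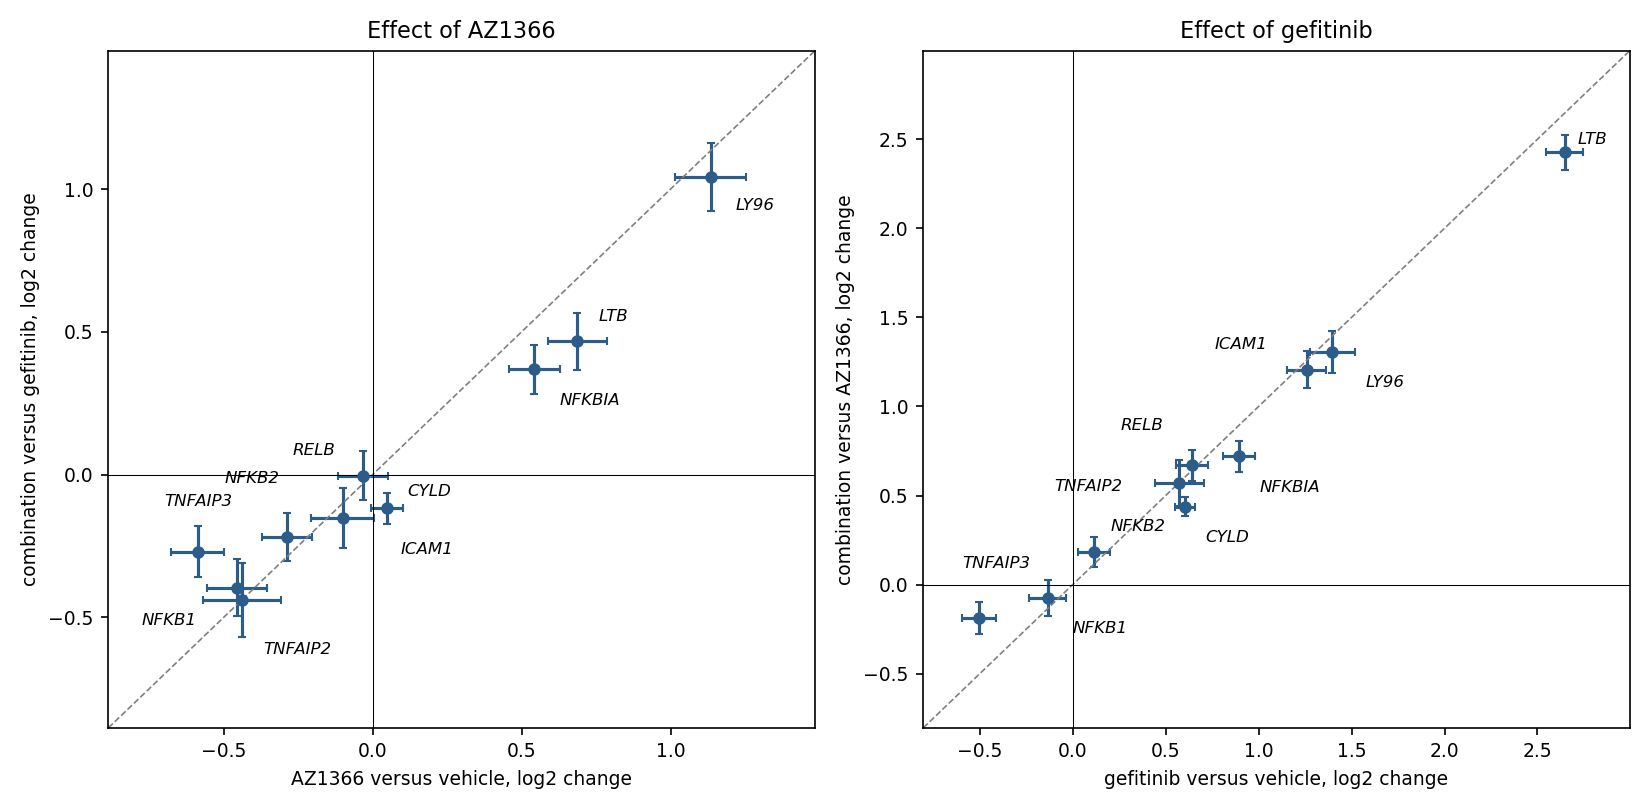
Left, change with AZ1366 in the presence of gefitinib (combination versus gefitinib, y axis) against its change alone (AZ1366 versus vehicle, x axis); right, change with gefitinib in the presence of AZ1366 (y axis) against its change alone (x axis), in log2(FPKM + 1) with SE bars and a dashed line of equality. LY96 lies near the line in both panels (1.04 against 1.13, and 1.31 against 1.40), and the values on both axes differ by the interaction.

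Beyond the members, 116 genes of the pathway were listed by role; 111 have loci of their own and 84 of these passed the filter. With the combination 39 of the 84 rose and 27 fell (46.4% and 32.1%, against 29.9% and 49.4% of all loci; median change 0.066, against -0.15 for all loci). With gefitinib 37 rose and 19 fell (44.0% and 22.6%, against 27.7% and 36.9% of all loci; 0.11, against -0.056). With AZ1366 25 rose and 22 fell (29.8% and 26.2%, against 18.6% and 39.8% of all loci; -0.058, against -0.10). Without AZ1366 replicate 1 the falls with AZ1366 numbered 36. Over all loci the same setting raised the calls with AZ1366 from 6801 to 7894, of which 27.6% were rises (otherwise 31.9%). The list counts of falls without AZ1366 replicate 1, here and below, are to be read beside that change over all loci. The lists, like the members, were drawn up with earlier results of these data known, so their directions are no independent evidence.

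Among ligands, TNF averaged 0.251 FPKM with the combination, 0.0984 with gefitinib, 0.0541 with AZ1366 and 0.00416 with vehicle, below the filter. TNFSF15, which engages a death-domain receptor, changed by 0.56 ± 0.091 with the combination, 0.26 ± 0.091 with gefitinib and 0.65 ± 0.091 with AZ1366 (SE, adjusted p of at most 0.0205); the gefitinib call was lost without vehicle replicate 1, gefitinib replicate 1 or gefitinib replicate 2 (adjusted p between 0.0505 and 0.0734). Of 9 receptors tested, 5 rose under each treatment, and 2, 2 and 1 fell with the combination, gefitinib and AZ1366 (3 with AZ1366 when its replicate 1 was left out). The rises are 55.6% of this short list, against 29.9%, 27.7% and 18.6% of all loci in the same order, and the falls 22.2%, 22.2% and 11.1%, against 49.4%, 36.9% and 39.8%. TLR3, a receptor for double-stranded RNA, rose by 2.04, 1.73 and 0.42, and TLR2, a receptor for bacterial lipoproteins, by 1.48, 1.06 and 0.57 in that order of treatments; with a pseudocount of 0.1 the TLR3 rises were 3.09, 2.72 and 0.84. LTBR, the receptor for the LTB product, fell by 0.63, 0.37 and 0.45, to 21.6 ± 1.77 FPKM with the combination, 25.9 ± 0.990 with gefitinib and 24.6 ± 3.27 with AZ1366, against 34.0 ± 3.63 FPKM with vehicle (SD, n = 4). Adjusted p for these 3 receptors were at most 0.00101.

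Of 20 adaptors and upstream kinases, 6 rose and 11 fell with the combination, and 6 rose and 5 fell with gefitinib, where 3 fell without gefitinib replicate 3 or 4. With AZ1366 2 rose and 7 fell, where 11 fell without AZ1366 replicate 1. With the combination these are 30.0% higher and 55.0% lower, near the 29.9% and 49.4% of all loci. With gefitinib they are 30.0% and 25.0%, against 27.7% and 36.9%, and with AZ1366 10% and 35%, against 18.6% and 39.8%. BIRC3, a ubiquitin ligase of TNF receptor complexes and an NF-kB target, rose by 1.39, 1.27 and 0.60 with the combination, gefitinib and AZ1366. IRAK1, a kinase of the Toll-like and interleukin-1 receptor branch, fell by 1.13, 0.74 and 0.57. MALT1, a protease of the antigen receptor branch, fell by 1.03 with the combination and 0.62 with gefitinib, and MAP3K14, the kinase of the non-canonical branch, fell by 0.78 with AZ1366. After the length and GC correction IRAK1 and MAP3K14 were at -0.26 and -0.43 with AZ1366. Of 5 genes for IKK kinases and their regulatory subunit, 4 fell and 1 rose with the combination: CHUK, encoding IKK alpha, fell by 0.82 to 11.8 ± 1.07 FPKM, against 21.6 ± 0.696 FPKM with vehicle, and IKBKE rose by 0.35. With gefitinib 2 of the 5 fell and 1 rose, and with AZ1366 3 fell and 0 rose. Falls made up 49.4%, 36.9% and 39.8% of all loci with the combination, gefitinib and AZ1366, and rises 29.9%, 27.7% and 18.6%. In the IkB family outside NFKBIA, NFKBIB changed by -0.46, -0.30 and -0.40 with the combination, gefitinib and AZ1366, opposite to NFKBIA each time (-0.23 and -0.24 with the combination and AZ1366 under quantile normalization). Of 9 ubiquitin ligases and deubiquitinases 4 fell with the combination, or 2 under quantile normalization and after the length and GC correction; the falls with AZ1366 numbered 5, and 2 to 8 when single libraries were left out (2 without vehicle replicate 1 or AZ1366 replicate 2 or 4, 8 without AZ1366 replicate 1). These falls are 44.4% and 55.6% of the list with the combination and AZ1366, against 49.4% and 39.8% of all loci. Rises in this list numbered 1 with the combination and 0 with AZ1366, where 29.9% and 18.6% of all loci rose. Adjusted p for the genes named here were at most 0.00270.

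Of 34 NF-kB target genes tested besides the members, 24 rose and 5 fell with the combination, 23 rose and 6 fell with gefitinib, and 16 rose and 5 fell with AZ1366. The rises are 70.6%, 67.6% and 47.1% of the list, against 29.9%, 27.7% and 18.6% of all loci, and the falls 14.7%, 17.6% and 14.7%, against 49.4%, 36.9% and 39.8%. The median change of the list was 0.35 with the combination, 0.46 with gefitinib and 0.15 with AZ1366, against -0.15, -0.056 and -0.10 for all loci. The chemokine genes CCL2 and CXCL10 rose most with the combination, by 2.89 ± 0.058 and 2.96 ± 0.091 (SE, adjusted p = 1.17e-16 and 1.53e-14). F3, encoding tissue factor, fell by 2.07 with the combination, 0.82 with gefitinib and 1.11 with AZ1366, and the matrix gene TNC fell by 1.61 with the combination and 1.19 with gefitinib, each with an adjusted p of at most 1.44e-06. Vascular adhesion gene VCAM1 did not exceed 0.0625 FPKM in any library, unlike ICAM1.

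**Figure D4:**
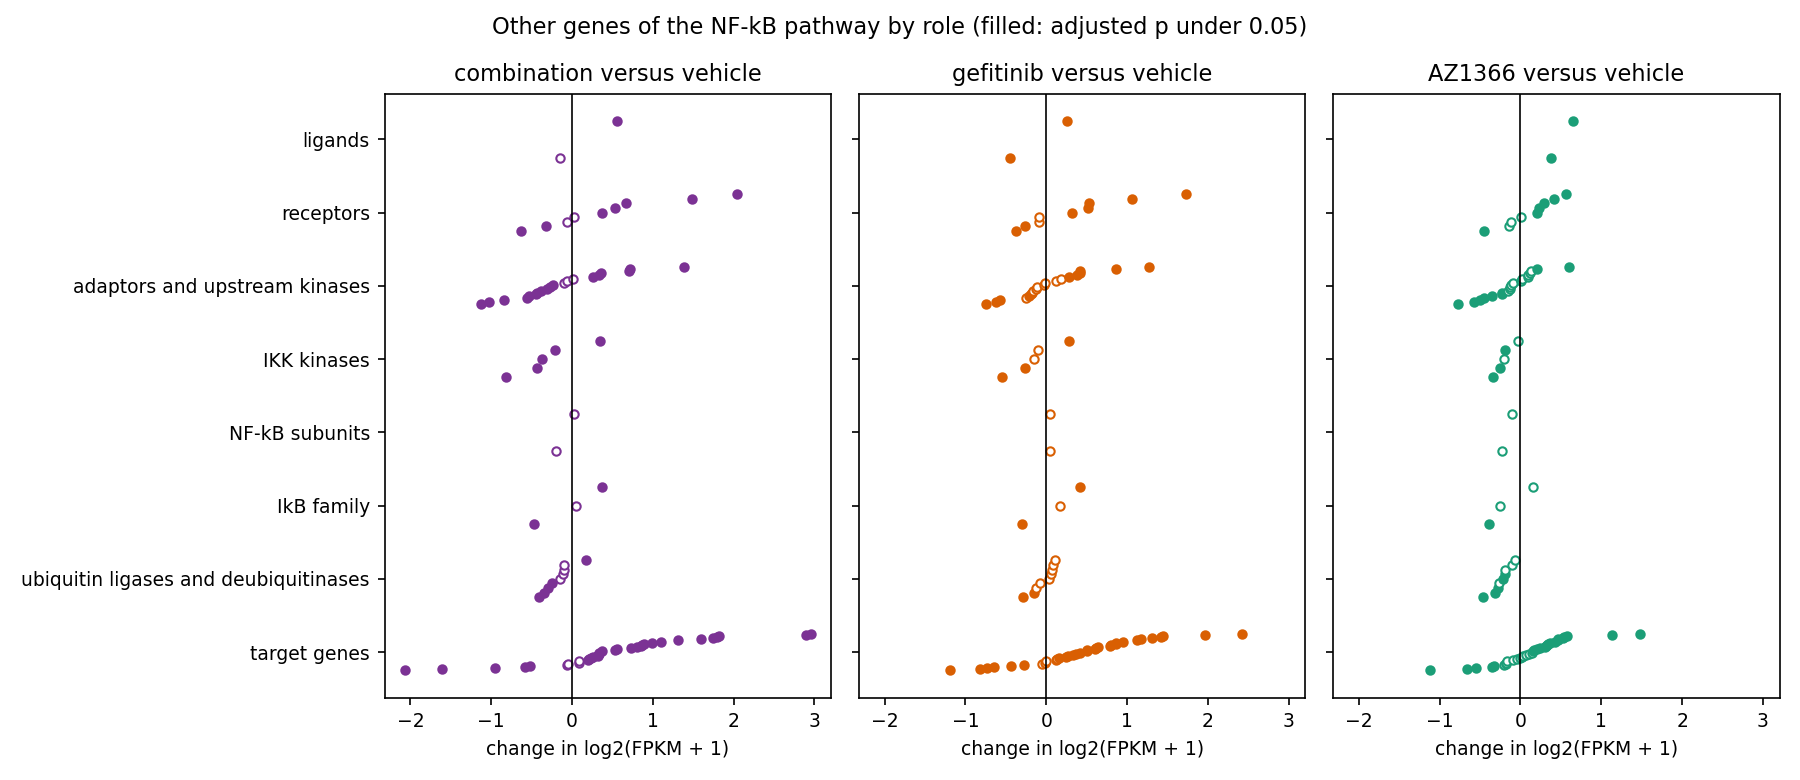
Change against vehicle in log2(FPKM + 1) (x axes) of the 84 other pathway genes that passed the filter, grouped by role (y axis), for the combination (left), gefitinib (middle) and AZ1366 (right); each point is 1 gene, ordered by its change within a role, and filled where the adjusted p was under 0.05. Target genes reach from -2.07 (F3) to 2.96 (CXCL10) with the combination, and the IKK row holds 4 falls and 1 rise there.

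Over the 16 libraries, the loci whose log2(FPKM + 1) ran most like that of each member were searched among 11637, as a description of libraries that share 4 treatments. LTB ran most like NEBL (Pearson's r = 0.997), APOL3 (0.996) and SECTM1 (0.996), LY96 most like HSD17B11 (0.994) and ICAM1 most like PNPLA2 (0.993). RELB ran most like TAP1 (0.990), a peptide transporter gene of antigen presentation, and CYLD most like STAT4 (0.989). TNFAIP3 ran most like MAEA (0.987), NFKB1 like TXNDC11 (0.987), TNFAIP2 like PHLDB1 (0.989), NFKBIA like STK38L (0.979) and NFKB2 like OBSL1 (0.963). Among the members themselves r was highest between RELB and ICAM1 (0.977) and lowest between LY96 and TNFAIP3 (-0.911).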

How the data were processed

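Polyadenylated RNA of 16 HCC4006 libraries (4 per group) was sequenced. The values used are FPKM as deposited by the authors, 1 table of 24293 loci. The tools named there are Cuffdiff, Cufflinks 1.3.0 and TopHat 1.4.1 and the build is hg19, per the submitters' processing notes; their roles, the annotation and the use of strand are not given in the sources used here. Reads of overlapping genes may therefore be shared. Cells were trypsinized and frozen, miRNeasy columns gave total RNA and the TruSeq RNA v2 kit the libraries, per the labels' protocols. Low values showed no steps of whole reads, so depth is unknown. Names missing from the table were taken from RefSeq for 589 loci, and 285 tested loci hold the joined names of several genes. No library or per-sample column was left out, and 0 pairs of libraries were identical.

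Loci with a mean of at least 1 FPKM were tested with limma 3.58.1 (R 4.3.3) on log2(FPKM + 1), with 1 factor of 4 groups, moderated variances with a trend (12 residual degrees of freedom), two-sided tests and Benjamini-Hochberg adjustment over the 11647 loci. The method was tested on simulated data. Errors are model SE for changes and SD for levels. The 7 comparisons were each treatment against vehicle, the treatments against each other and the interaction. No member fell below the filter, so the permutation test meant for such members was not needed. The members and gene lists were chosen with earlier results of these data known. The text names all members, genes among the 2 largest rises and falls per list and comparison against vehicle, and the loci most like each member; RELA, LTA, TNF, TLR4, CD14, VCAM1, BIRC3 in the interaction and the genes with opposite calls were named after their values were seen. Coordinates are hg19 intervals of the table, with starts raised by 1 because its intervals count from 0. Sequences are from RefSeq (GRCh38.p14): 8 of 10 members had a promoter entry. Transcript length and GC content came from GENCODE 29 for 99.1% of tested loci. Alternatives were another pseudocount, other filters, quantile and median-ratio scaling, no trend, a fit on the compared libraries alone, a block for the replicate number, the length and GC correction, the sum of all rows of a symbol, and leaving out libraries.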

Additional observations from a re-analysis of the deposited data

Results flagged for a closer look

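Of 40 groups of 4 libraries (10 members in 4 groups), 3 held a library set apart from the other libraries of its group by more than Dixon's 95% critical value, which chance gives in about 1 of 20 groups. TNFAIP3 in gefitinib replicate 2 stood at 4.94 FPKM, against 3.80 to 3.97 FPKM in the other gefitinib libraries (a gap of 0.856 of the range). In AZ1366 replicate 1, TNFAIP3 stood at 4.90 FPKM, against 3.43 to 3.61 FPKM in the other AZ1366 libraries (0.872), and TNFAIP2 at 44.7 FPKM, against 27.5 to 29.5 FPKM (0.887). Without AZ1366 replicate 1 the fall of TNFAIP3 with AZ1366 was -0.68 (limma, adjusted p = 8.83e-07) and that of TNFAIP2 -0.59 (6.10e-05); without gefitinib replicate 2 the fall of TNFAIP3 with gefitinib was -0.57 (3.27e-05).

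In 3 of the 84 other pathway genes the combination departed from the sum of the single changes (interaction, limma). Of the list 1 gene was above the sum (1.19%) and 2 were below it (2.38%), against 0.326% and 1.49% of all loci. Counts this small say little about the list. BIRC3 was below the sum, at -0.47 ± 0.10 (SE, adjusted p = 0.0213), a call lost without gefitinib replicate 1 or 2 or combination replicate 3 or 4 (adjusted p between 0.0507 and 0.0557). CCL2 was at -0.66 ± 0.082 (0.00115), with single changes of 2.42 for gefitinib and 1.13 for AZ1366 beside 2.89 for the combination. CXCL10 was at 0.89 ± 0.13 (0.00231), with 7.93 ± 1.03 FPKM in combination libraries, 3.48 ± 0.417 in gefitinib libraries, 0.233 ± 0.0847 in AZ1366 libraries and 0.149 ± 0.123 in vehicle libraries (SD, n = 4); at these low levels the call depended on the scale and was lost with a pseudocount of 0.1 (0.66, adjusted p = 0.397).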

How the results depend on the processing

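Of 1393 member values under alternatives, 1295 kept their direction and side of the threshold, 17 lost and 31 gained a call in the same direction, and 50 changed sign, 1 of them a value that had passed. No member call changed without the mean-variance trend, with a minimum mean of 5 FPKM (where TNFAIP3 was not tested), with only the libraries compared or with the sum of all rows of a symbol. Of 1222 values of the other named genes, 1204 kept and 18 lost their call, and 0 changed sign; of 1026 counts of list members, 933 were within 1.5 times. With a minimum mean of 5 FPKM fewer list genes were tested, and 2 receptors rose under each treatment; a fit of the compared libraries alone gave 8 adaptor and kinase falls with gefitinib. The number of members past the threshold in the interaction was 1 instead of 0 under quantile normalization and after the length and GC correction, and 0 to 1 when single libraries were left out; the cause was not tested.

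Of the 50 values that changed sign, NFKB2 with AZ1366 was the one that had passed, and 3 passed with the new sign after the length and GC correction (NFKB2 with the combination, and RELB and ICAM1 with AZ1366). Against vehicle, quantile normalization gave 0.093 for NFKB2 with the combination and 0.12 for RELB and 0.049 for ICAM1 with AZ1366. Median-ratio scaling gave 0.032, 0.081 and 0.010 for the same. The length and GC correction gave 0.21, 0.18 and 0.18 for these, 0.018 for NFKB2 with AZ1366 and 0.0034 for NFKB1 with gefitinib. For the combination against gefitinib, RELB was 0.098, 0.10 and 0.081 under these 3 settings, CYLD 0.027 under quantile normalization and 0.072 after the correction, and ICAM1 0.034 after the correction. NFKB1 in the combination against AZ1366 was 0.030 after the correction and 0.050 without AZ1366 replicate 1 and vehicle replicate 1. TNFAIP3 in gefitinib against AZ1366 was -0.014 under quantile normalization and -0.0066 after the correction. In the interaction, the correction gave 0.11 for LY96, -0.062 for NFKB2 and -0.099 for RELB, quantile normalization -0.026 for RELB, leaving out AZ1366 replicate 1 and vehicle replicate 1 0.011 for ICAM1 and 0.084 for TNFAIP2, and a pseudocount of 0.1 0.0018 for TNFAIP2. With single libraries left out, RELB ranged over -0.12 to 0.016 with AZ1366 and -0.051 to 0.041 for the combination against gefitinib, NFKB1 over -0.13 to 0.050 for the combination against AZ1366, and the interactions of RELB, ICAM1 and TNFAIP2 over -0.020 to 0.11, -0.11 to 0.065 and -0.083 to 0.15.

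The interaction had 212 calls over all loci, and 620 under quantile normalization, 426 under median-ratio scaling 664 after the length and GC correction and 513 without AZ1366 replicate 1. The replicate numbers did not meet the criterion for pairing, an r above 0.1 in every same-numbered pair: r of the deviations ran from -0.447 to 0.539 in 24 same-numbered pairs (median 0.215, above 0.1 in 16), against a median of -0.091 in 72 pairs of different numbers (above 0.1 in 25), so some shared deviation by number remains possible. With the number as a block, NFKB2 in the combination against AZ1366 (0.18, adjusted p = 0.0254) and LY96 in gefitinib against AZ1366 (0.26, 0.0151) also passed, and the other 68 of 70 member results kept their call. FPKM without counts set the limit for low genes such as LTB in vehicle libraries.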

Other observations

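Of 94 pathway genes, members included, 4 passed in opposite directions with gefitinib and with AZ1366: TNFAIP2, GADD45B, IL8 and TNFSF11. Opposite calls were not counted over all loci, of which 64.6% passed with gefitinib and 58.4% with AZ1366. The number of such genes is therefore no result about the pathway. GADD45B, a stress-response gene, rose by 0.78 with gefitinib and fell by 0.66 with AZ1366, a difference of 1.44 ± 0.15 (SE, limma, adjusted p = 4.63e-07), as TNFAIP2 did with 1.01 ± 0.13 (5.80e-06). IL8, encoding a neutrophil chemokine, fell by 0.43 with gefitinib and rose by 1.48 with AZ1366, a difference of -1.91 ± 0.14 (7.59e-09). It averaged 5.48 ± 0.414 FPKM with the combination, 2.83 ± 0.391 with gefitinib, 13.5 ± 2.58 with AZ1366 and 4.25 ± 1.24 with vehicle (SD, n = 4), and its fall with gefitinib was lost without vehicle replicate 2 (adjusted p = 0.0631). TNFSF11, encoding the ligand RANKL, fell by 0.45 with gefitinib and rose by 0.38 with AZ1366 (-0.83 ± 0.076, 9.80e-08). The fall of TNFAIP2 with AZ1366 did not pass after the length and GC correction; the other calls of these 4 genes did.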
